A study of Mus musculus with 8 samples.

Results

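The ADAMTS proteases are secreted metalloproteases of the extracellular matrix, each with a disintegrin-like region and thrombospondin type 1 repeats. The 9 genes described here, Adamts1, Adamts2, Adamts4, Adamts5, Adamts6, Adamts9, Adamts10, Adamts12 and Adamts15, were taken by gene symbol from the tables of all genes. They are 9 of 34399 gene symbols, of which 25258 had a count in at least 1 library once expected counts were rounded. A further 10 ADAMTS protease genes in the tables were kept as a comparison list. Each symbol stood in 1 entry per table, and all 9 passed the filter on low counts in each comparison.

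ADAMTS proteases are made as inactive precursors, are cut by proprotein convertases such as furin, and act outside the cell or at its surface. Adamts1, Adamts4, Adamts5, Adamts9 and Adamts15 cleave large proteoglycans such as versican and aggrecan. Adamts2 removes the amino-terminal propeptide of fibrillar procollagens, and Adamts6 and Adamts10 are a closely related pair linked to fibrillin microfibrils and fibronectin. Adamts12 and its relative Adamts7 cleave cartilage oligomeric matrix protein. In the heart, versican and collagen are made largely by fibroblasts, and their turnover is part of the response to pressure overload.

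RNA was sequenced from GFP-positive cardiac fibroblasts that were sorted from the ventricles of mice 4 weeks after TAC (transverse aortic constriction), an operation that narrows the aorta and loads the heart with pressure. All 4 groups of 2 libraries came from mice of 8 to 10 weeks at surgery that carried the Rosa26 reporter R26eGFP and a tamoxifen-dependent Cre (MerCreMer), and all received tamoxifen at 100 mg/kg on 2 days and then tamoxifen-citrate chow (40 mg/kg). In the first comparison Cre was knocked into Postn, a gene switched on in activated fibroblasts: the Postn-Cre controls, libraries HK3 and HK4, were set against libraries HK15 and HK16 from mice with LoxP-targeted Smad2/3, called Smad2/3 DKO (double knockout). In the second, Cre was knocked into Tcf21, a gene of resident fibroblasts: Tcf21-Cre control libraries HK6 and HK7 were set against libraries HK2 and HK4 from Tgfbr1/2-loxP-targeted mice, called Tgfbr1/2 DKO. Smad2 and Smad3 carry the signal of TGF-beta from its receptors Tgfbr1 and Tgfbr2 to the nucleus, and the question of the design is what is lost with either pair of genes. All groups were operated, so no value here is a response to the surgery, and the labels of the control groups name Cre and GFP but no loxP allele. Each comparison was sequenced in a run of its own, so that run, Cre driver and targeted genes all differ at once between the comparisons. Whether the libraries of a group were separate animals or pools is not in the labels, so the p-values reflect the spread of these libraries alone, which may be technical.

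The libraries held between 21477742 and 32594649 counts, and 3 counts, taken as the limit of detection, correspond to 0.092 to 0.14 CPM (the count over the library total, times 1000000). The intervals cover only the spread of the libraries in a fit, pooled over its groups and drawn towards that of other genes. The limit covers counting error only, and amplified reads are not independent molecules. Total counts of the targeted genes did not pass the test in their own comparison (Smad2 at a log2 fold change of -0.19, Smad3 at -0.26, Tgfbr1 at -0.24 and Tgfbr2 at 0.25), so DKO is used as the labels give it. Fibroblast markers were high throughout, with Dcn at a mean of 11758 CPM, Fstl1 at 3060.2 CPM and Col1a2 at 3040 CPM over all 8 libraries. Markers of other cell types were also detected, led by Rgs5 (524 CPM), Pdgfrb (218 CPM) and Steap4 (122 CPM) for pericytes and smooth muscle, Atp2a2 (473 CPM), Ttn (88.7 CPM) and Actc1 (28.5 CPM) for cardiomyocytes, and Eng (150 CPM), Tek (101 CPM) and Erg (60.2 CPM) for endothelial cells. Aldh1a2 (122 CPM), Tbx18 (25.8 CPM) and Wt1 (1.7 CPM) led the epicardial list, Lyz2 (27.0 CPM), Cd74 (19.6 CPM) and Cd68 (16.04 CPM) the myeloid list, Cdh19 (20.1 CPM), Ngfr (4.4 CPM) and Kcna1 (4.3 CPM) the Schwann cell list, Hbb-b1 (12.7 CPM), Hbb-b2 (10.3 CPM) and Hba-a1 (8.3 CPM) the erythroid list, and Cd4 (3.3 CPM), Cd79a (1.3 CPM) and Cd8a (0.8 CPM) the lymphocyte list. No gene of these lists was at 0 in all libraries. In bulk RNA of sorted cells, fewer cells of a type and less RNA per cell cannot be told apart.

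The RefSeq promoter table (build GRCm38.p6) held 4 of the 9 genes: Adamts1, Adamts2, Adamts9 and Adamts12. The 250 bases before the start are shown for Adamts2 and Adamts9, which passed the test in the Smad2/3 comparison, and for Adamts1, the gene with the highest level per length. They are read 5′ to 3′ in the direction of the gene, from chr16:85803114-85803363 (minus strand) for Adamts1, chr11:50601835-50602084 (plus strand) for Adamts2 and chr6:92943535-92943784 (minus strand) for Adamts9. Capitals mark matches to TATAAA, the TATA element, or GGGCGG, the core of a GC box, on either strand.
Adamts1: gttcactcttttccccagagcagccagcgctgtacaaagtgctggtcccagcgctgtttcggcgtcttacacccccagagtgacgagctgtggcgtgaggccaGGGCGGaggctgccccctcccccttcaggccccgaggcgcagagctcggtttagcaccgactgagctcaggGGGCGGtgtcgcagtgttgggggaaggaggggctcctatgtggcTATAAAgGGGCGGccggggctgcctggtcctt
Adamts2: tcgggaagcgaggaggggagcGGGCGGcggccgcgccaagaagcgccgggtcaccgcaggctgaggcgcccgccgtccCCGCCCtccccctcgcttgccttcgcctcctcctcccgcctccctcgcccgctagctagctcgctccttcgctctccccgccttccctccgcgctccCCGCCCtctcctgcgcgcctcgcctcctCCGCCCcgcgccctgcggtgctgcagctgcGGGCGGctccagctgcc
Adamts9: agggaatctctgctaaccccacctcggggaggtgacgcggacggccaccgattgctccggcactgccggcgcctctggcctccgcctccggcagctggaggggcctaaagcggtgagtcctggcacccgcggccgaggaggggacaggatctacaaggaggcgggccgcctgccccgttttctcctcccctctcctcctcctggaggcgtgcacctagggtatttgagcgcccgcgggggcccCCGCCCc

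These windows were rich in G and C, at 65.6% for Adamts1, 78% for Adamts2, 71.2% for Adamts9 and 63.2% for Adamts12, against a median of 52.4% over 32851 promoters. GGGCGG was matched 3 times in Adamts1, 5 times in Adamts2, once in Adamts9 and not in Adamts12, and 32.7% of all promoter windows of this length hold it. TATAAA was matched once, in Adamts1, against 12.4% of all windows. CAGAC, a core of sites bound by SMAD proteins, and TGANTCA, the site of AP-1 factors, were also searched on both strands. Neither was found in these 4 windows, whereas 42.2% of all windows hold CAGAC and 6.75% hold TGANTCA. No matches overlapped each other, and a match or its absence in a window this short is a description only.

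Levels were compared between the genes as CPM per kilobase of merged exons. Adamts1 was the highest of the 9 in every group, at 299 ± 17.3 CPM per kilobase (SD, n = 2) in the Postn-Cre controls, 211 ± 4.68 in Smad2/3 DKO, 166 ± 33.003 in the Tcf21-Cre controls and 163 ± 79.1 in Tgfbr1/2 DKO. It made up 40.5% to 71.9% of the summed level per length of the 9 genes across the libraries. By mean CPM over 8 libraries, it ranked 86th of 26110 symbols with a value above 0 before rounding, and Adamts2 ranked 281st.

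**Figure D1:**
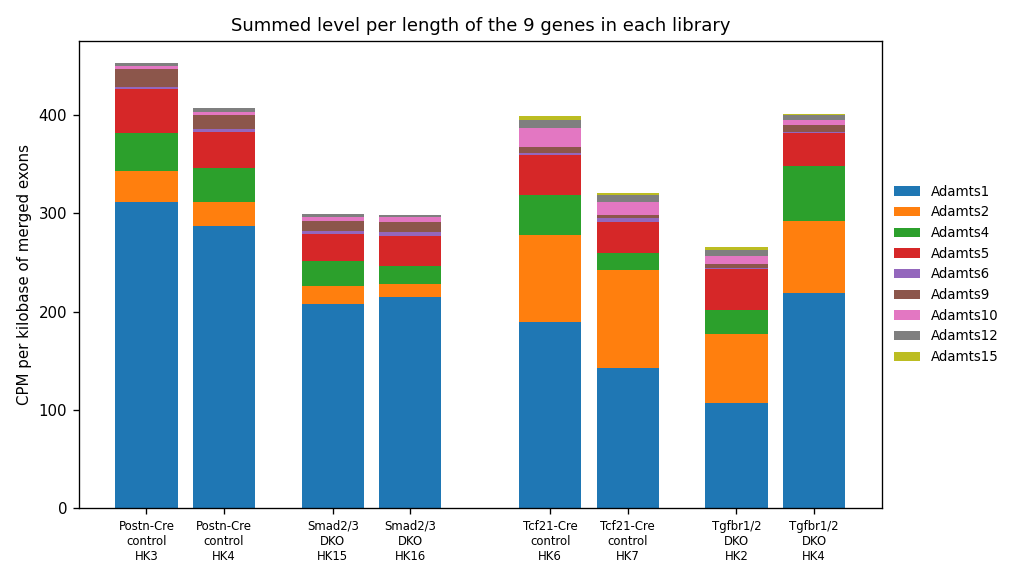
Stacked bars give CPM per kilobase of merged exons for each of the 9 genes in each of the 8 libraries (x axis, by group). Adamts1 is the largest block in every bar, and the Adamts2 block is larger in the 4 libraries of the Tcf21-Cre run (69.9 to 99.7) than in those of the Postn-Cre run (13.2 to 31.9).

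In the Postn-Cre controls the order below Adamts1 was Adamts5 (41.0 ± 5.19 CPM per kilobase), Adamts4 (36.4 ± 3.48), Adamts2 (28.5 ± 4.74), Adamts9 (16.6 ± 2.62), Adamts12 (3.69 ± 0.127), Adamts10 (2.93 ± 0.525), Adamts6 (1.99 ± 0.400) and Adamts15 (0.0584 ± 0.0329), each as mean ± SD with n = 2. Adamts5 and Adamts4 overlapped across the 2 libraries, though Adamts5 was the higher within each, and the other neighbours did not overlap. In the Tcf21-Cre controls, Adamts2 came second at 94.2 ± 7.80 CPM per kilobase. It was followed there by Adamts5 (36.0 ± 6.06) and Adamts4 (28.7 ± 16.7), which overlapped and changed order between the libraries. Then came Adamts10 (16.4 ± 4.64), which overlapped Adamts4 across the libraries but was lower within each. Below it were Adamts12 (7.82 ± 0.977), Adamts9 (4.45 ± 1.58), Adamts6 (3.24 ± 0.936) and Adamts15 (2.76 ± 1.20). Adamts9, Adamts6 and Adamts15 overlapped in that group, with Adamts9 above Adamts15 within each library. In Smad2/3 DKO no neighbours overlapped below Adamts1, with Adamts5 at 29.0 ± 2.14, Adamts4 at 22.1 ± 4.36, Adamts2 at 15.6 ± 3.38, Adamts9 at 9.63 ± 0.299, Adamts10 at 4.83 ± 0.390, Adamts6 at 3.76 ± 0.104, Adamts12 at 2.54 ± 0.451 and Adamts15 at 0.0749 ± 0.0423 CPM per kilobase. In Tgfbr1/2 DKO, Adamts2 was at 71.7 ± 2.44, Adamts4 at 39.5 ± 22.1 and Adamts5 at 38.0 ± 5.36, the last pair overlapping. Adamts10 (6.48 ± 2.44), Adamts12 (5.39 ± 0.530) and Adamts9 (5.37 ± 1.79) overlapped there. Adamts15 (1.97 ± 1.01) and Adamts6 (1.43 ± 0.342) overlapped too, though Adamts15 was the higher within each library. The order of the low genes depends on gene length: with the length of the longest transcript, the mean over 8 libraries rises to 16.92 CPM per kilobase for Adamts9 and 15.33 for Adamts10.

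The first comparison asked how the protease genes stood in Smad2/3 DKO fibroblasts. Adamts2, the procollagen amino-propeptidase, and Adamts9, a protease of versican, fell to 0.525 and 0.557 of control. Adamts1, Adamts4, Adamts5 and Adamts12 had lower values in both Smad2/3 DKO libraries than in both controls, and Adamts6 and Adamts10 had higher values in both, without passing the test. So 2 of 9 genes passed, both lower, where 1.29% of 15760 tested genes passed (0.844% lower and 0.451% higher). The groups did not overlap for 8 of 9 genes, 6 lower and 2 higher, beside 44.4% of all tested genes (18.9% lower and 25.4% higher). The median log2 fold change was -0.56 over the 9 genes and 0.01 over all tested genes.

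**Figure D2:**
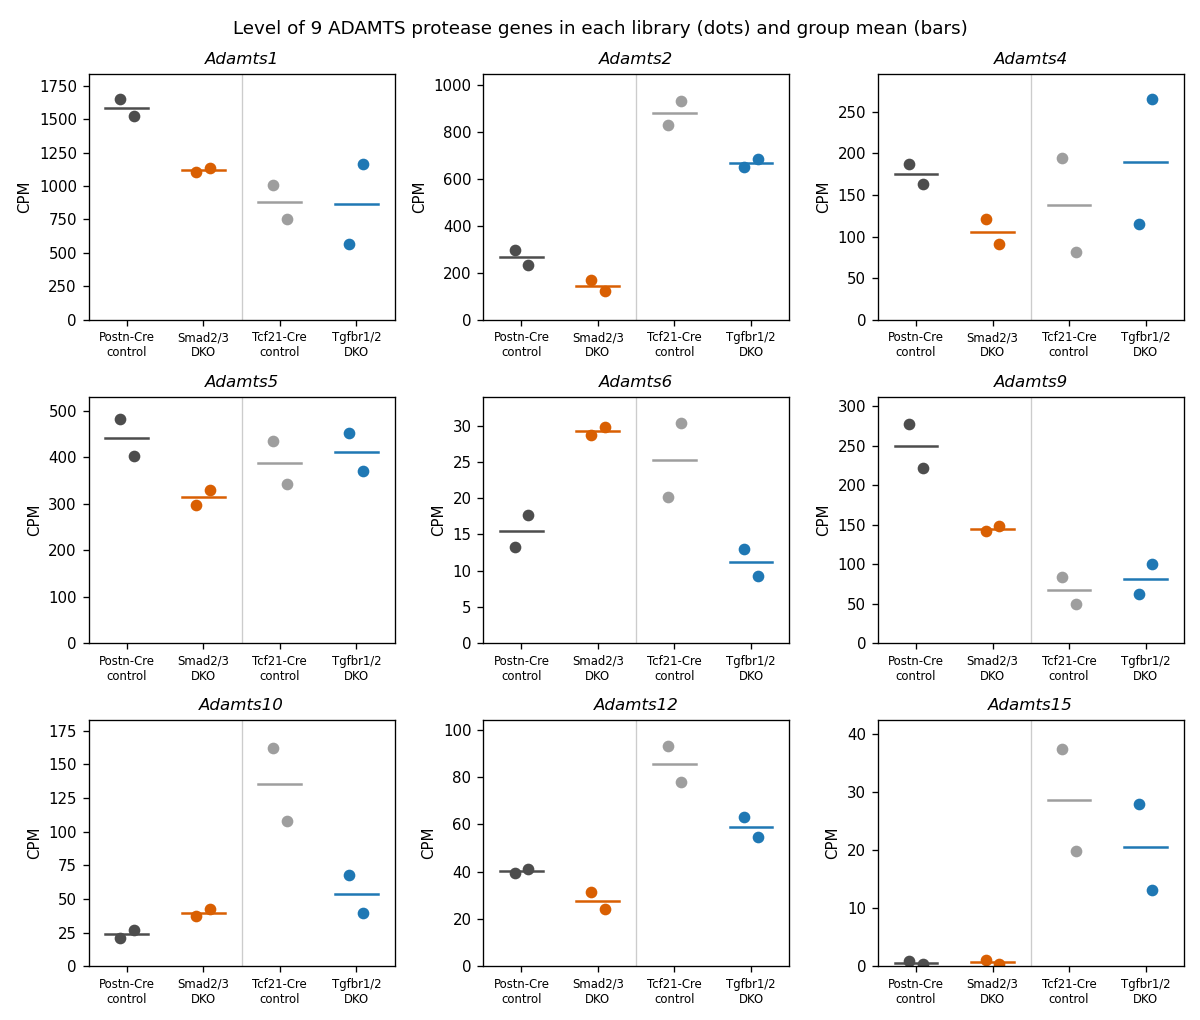
Each panel shows the CPM (y axis, from 0, with a scale of its own) of 1 gene in the 8 libraries as dots, with a bar at the mean of each group of 2. Adamts2 and Adamts9 lie lower in Smad2/3 DKO than in the Postn-Cre controls, and Adamts6 and Adamts10 lie higher in Smad2/3 DKO and lower in Tgfbr1/2 DKO than in their controls.

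Adamts2 (chr11:50602084-50807573, plus strand) was at 297 and 235 CPM in the control libraries and at 168 and 123 CPM in the Smad2/3 DKO libraries. Both DKO libraries lay below both controls. The log2 fold change was -0.93 ± 0.19 (SE; adjusted p = 0.0458). The call was lost without Postn-Cre control HK3 (adjusted p = 0.121), Smad2/3 DKO HK15 (0.0501) or Smad2/3 DKO HK16 (0.192), without robust estimation (0.0513) and in a fit of all 8 libraries (0.0723), and it held with the other alternatives at values down to 5.15e-05. The log2 fold change stayed between -1.16 and -0.73.

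Among the proteoglycan-cleaving members, Adamts9 (chr6:92772699-92943492, minus strand) was at 278 and 222 CPM in the control pair, against 142 and 148 CPM in Smad2/3 DKO. The DKO libraries lay close together and below both controls, with a log2 fold change of -0.85 ± 0.17 (adjusted p = 0.039). The call was lost without HK3 (adjusted p = 0.125), HK15 (0.208) or HK16 (0.0915) and in the fit of all 8 libraries (0.165). Of its merged exon bases, 9.18% are shared with A730049H05Rik and 2.82% with Gm15737 on the other strand, at 10.97 to 18.3 and 2.94 to 7.42 CPM over the 8 libraries. The library kit as described marks no strand, so reads from shared bases cannot be told apart.

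Adamts1 (chr16:85793827-85803113, minus strand) was at 1649.95 and 1519.87 CPM in the control pair, against 1103 and 1138 CPM in Smad2/3 DKO. The groups were apart, with a log2 fold change of -0.56 ± 0.14 (adjusted p = 0.0855). Adamts5 (chr16:85856173-85901828, minus strand), a main aggrecanase, lies 53059 bases away with 0 protein-coding genes in between. Adamts5 was at 482 and 403 CPM in the control pair, against 297 and 329.8 CPM in Smad2/3 DKO, a log2 fold change of -0.56 ± 0.16 (adjusted p = 0.129). Both genes were lower in each DKO library by a similar size, and neither passed.

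Adamts4 (chr1:171250421-171260637, plus strand), another aggrecanase, was at 187 and 163 CPM in the control pair, against 121 and 91.3 CPM in Smad2/3 DKO, a log2 fold change of -0.78 ± 0.19 (adjusted p = 0.0785). It passed without Postn-Cre control HK4 (adjusted p = 0.0366), and Adamts1, Adamts4 and Adamts5 all passed with DESeq2 (0.0113, 0.00512 and 0.0349) and without the filter on low counts (0.0108, 0.00309 and 0.0337). Adamts15 (chr9:30899155-30922452, minus strand) was near the limit of detection in this run, at 0.846 and 0.364 CPM in the control pair and 1.09 and 0.466 CPM in Smad2/3 DKO. Its groups overlapped, and the interval of its log2 fold change (95% confidence, -2.13 to 2.77) left its direction unknown.

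Adamts6 (chr13:104287835-104496695, plus strand) was at 13.3 and 17.7 CPM in the control pair, against 28.7 and 29.9 CPM in Smad2/3 DKO. Both DKO libraries were higher, with a log2 fold change of 0.86 ± 0.29 (adjusted p = 0.199). Its relative Adamts10 (chr17:33524204-33553782, plus strand) was at 21.1 and 27.3 CPM in the control pair, against 37.6 and 42.2 CPM in Smad2/3 DKO, a log2 fold change of 0.67 ± 0.26 (adjusted p = 0.277). The pair thus had higher values in both DKO libraries without passing the test. Adamts12 (chr15:11064790-11349231, plus strand) was at 39.3 and 41.3 CPM in the control pair, against 31.2 and 24.3 CPM in Smad2/3 DKO, a log2 fold change of -0.60 ± 0.25 (adjusted p = 0.321). No alternative took Adamts6, Adamts10 or Adamts12 past the threshold in this comparison.

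Added over the 9 genes, the level was 2969 and 2629 CPM in the control pair and 1929 and 1927 CPM in Smad2/3 DKO, a sum set mostly by Adamts1. Marker lists of other cells also differed between these libraries. Pericyte and smooth muscle markers were lower in value for 10 of 12, with 1 past the edgeR test, also lower (with DESeq2, Kcnj8). Their sums overlapped, at 1645 and 921 CPM in the control pair and 1115 and 838 CPM in Smad2/3 DKO. Endothelial markers summed to 671 and 362 CPM in the control pair and to 354 and 258 CPM in Smad2/3 DKO, with 13 of 14 lower in value and 0 past the edgeR test (6 at an unadjusted p below 0.05; Eng with DESeq2; 0 to 3 on leaving out 1 library). Of the epicardial list, Aldh1a2 was at 39.4 and 35.1 CPM against 13.7 and 17.7 CPM, while the other genes summed to 30.8 and 25.8 CPM against 28.5 and 18.8 CPM, which overlapped. Fibroblast markers summed to 21652 and 19241 CPM against 16783 and 16301 CPM, with Col1a1 and Col1a2 past the test. Cardiomyocyte markers were lower in value for 9 of 11 tested genes, with 0 past the edgeR test (5 at an unadjusted p below 0.05; Ttn with DESeq2), though their summed level overlapped between the groups. Immediate early genes, which respond within minutes to cell stress, summed to 7179 and 6009.8 CPM against 8679 and 8021 CPM, with 17 of 19 higher in value. Of these, Egr1 rose (0.71; adjusted p = 0.0386) and Klf6 fell (-0.79; 0.0184), and 7 passed with DESeq2. Xist, transcribed from the inactive X chromosome, was at 3.67 and 2.18 CPM in the control pair, against 276.5 and 75.3 CPM in Smad2/3 DKO, while the Y-linked Ddx3y was at 132 to 222 CPM in all 4 libraries. The part of these differences in the protease values was not tested.

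The second comparison asked the same of Tgfbr1/2 DKO fibroblasts. Adamts10 fell to 0.416 of control and was the 1 gene of 9 to pass, where 3.96% of 16658 tested genes passed (1.31% lower and 2.64% higher). Adamts2, Adamts6, Adamts10 and Adamts12 had lower values in both DKO libraries than in both controls. That is 4 of 9 genes without overlap, all lower, beside 51.1% of tested genes (29.3% lower and 21.7% higher). The median log2 fold change was -0.31 over the 9 genes and -0.01 over all tested genes.

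**Figure D3:**
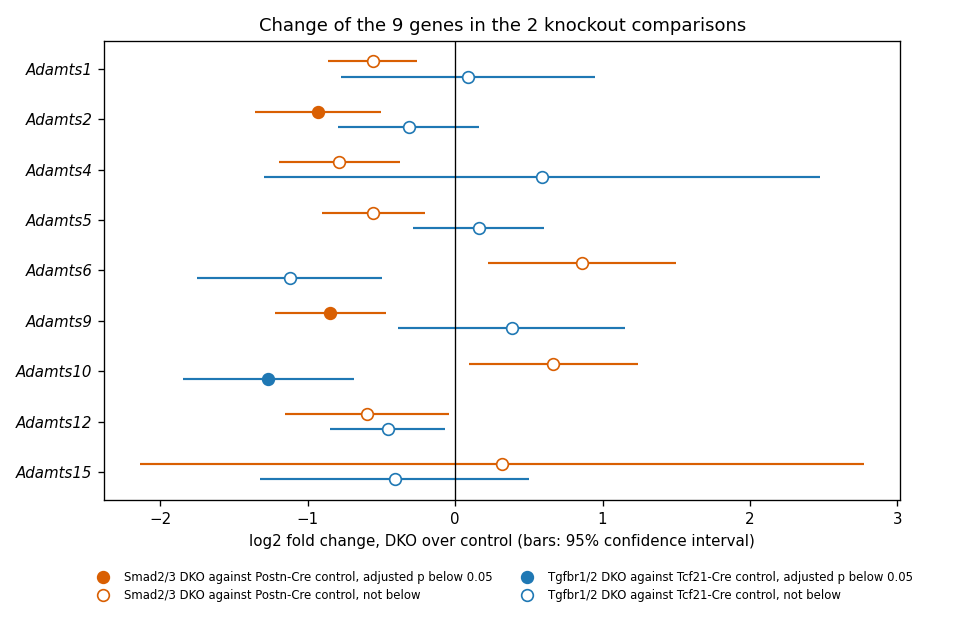
Dots give the log2 fold change of DKO over control for each gene (y axis) in the Smad2/3 comparison (orange) and the Tgfbr1/2 comparison (blue), with bars for the 95% confidence interval and filled dots for an adjusted p below 0.05. Adamts2 and Adamts9 are filled in the first, at -0.93 and -0.85, and Adamts10 in the second, at -1.27.

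Adamts10 was at 162 and 108 CPM in the Tcf21-Cre controls and at 67.7 and 39.2 CPM in Tgfbr1/2 DKO. The log2 fold change was -1.27 ± 0.26 (adjusted p = 0.0305). The call was lost without Tcf21-Cre control HK6 (adjusted p = 0.095) or Tgfbr1/2 DKO HK4 (0.121) and held in 7 of 9 alternatives. Adamts6 was at 20.1 and 30.4 CPM in the control pair, against 13.03 and 9.26 CPM in Tgfbr1/2 DKO, a log2 fold change of -1.12 ± 0.28 (adjusted p = 0.0572). The value for Adamts6 was close to that of Adamts10 and passed with DESeq2 (0.0106), without the low-count filter (0.00561) and without HK6 (0.0212), with a range of 0.00561 to 0.256 over 9 alternatives.

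Adamts2 was at 828 and 931 CPM in the control pair, against 653 and 685 CPM in Tgfbr1/2 DKO, a log2 fold change of -0.31 ± 0.22 (adjusted p = 0.457). Adamts12 was at 92.9 and 77.8 CPM against 62.9 and 54.7 CPM, a log2 fold change of -0.46 ± 0.18 (adjusted p = 0.183). Both genes were lower in each DKO library, by less than the test could call. Adamts15 was measurable in this run, at 37.4 and 19.8 CPM in the control pair and 27.9 and 13.1 CPM in Tgfbr1/2 DKO, and its groups overlapped (log2 fold change -0.41 ± 0.38; adjusted p = 0.614).

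The 2 libraries of a group stood apart from each other for several proteoglycan-cleaving members, in Tgfbr1/2 DKO and also in the Tcf21-Cre controls. Adamts1 was at 1004 and 757 CPM in the control pair, against 569 and 1163 CPM in DKO HK2 and HK4, and Adamts4 was at 195 and 81.5 CPM against 115 and 265 CPM. For both genes the DKO libraries enclosed or overlapped the controls. The higher DKO library was 2.04 and 2.31 times the other, beside 1.33 and 2.39 times in the control pair. Adamts9 was at 83.7 and 50.1 CPM in the control pair, against 61.7 and 99.9 CPM in DKO, with ratios of 1.67 and 1.62 within the groups. The log2 fold changes were 0.09 ± 0.37 for Adamts1 (adjusted p = 0.924), 0.59 ± 0.66 for Adamts4 (0.699) and 0.38 ± 0.32 for Adamts9 (0.572). Without DKO HK4 all 3 turned negative (-0.60, -0.23 and -0.09), and without control HK6 they were 0.26, 1.29 and 0.75. Adamts5 was at 435 and 342 CPM against 451 and 369.6 CPM, with overlapping groups and a log2 fold change of 0.16 ± 0.20 (adjusted p = 0.711).

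Marker sums moved in this comparison too. Myeloid markers summed to 59.5 and 88.8 CPM in the control pair and to 218 and 236 CPM in Tgfbr1/2 DKO, with 12 of 12 higher in value and 5 past the edgeR test (8 with DESeq2; 0 to 9 on leaving out 1 library). Of the epicardial and mesothelial list, Aldh1a2 alone passed the edgeR test (3.73; adjusted p = 0.0296; not called on leaving out some single libraries). Of the 5 tested genes of this list, 3 were higher in value, with a median of 2.09. An unadjusted p below 0.05 was reached by 3 of the 5. Aldh1a2 was at 49.3 and 16.5 CPM in the control pair, against 387 and 419.9 CPM in DKO. The other genes, led by Tbx18, summed to 34.7 and 29.9 CPM against 40.0 and 24.4 CPM, which overlapped. Schwann cell markers summed to 45.0 and 19.98 CPM against 21.1 and 14.9 CPM, and fibroblast markers to 31338 and 37886 CPM against 28591 and 27605 CPM. Endothelial markers summed to 488 and 463 CPM against 579 and 563 CPM. Of these, 11 of 14 were higher in value and 1 passed the edgeR test (3 with DESeq2). Pericyte and smooth muscle markers were higher in value for 9 of 12, with 1 past the edgeR test, though their sums overlapped. Erythroid markers were higher for 5 of 5 tested, with 0 past the edgeR test and 4 with DESeq2. Among immediate early genes, 13 of 19 were higher in value and 2 passed the edgeR test, both lower. The part of these in the values of Adamts10 and Adamts6 was not tested.

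The difference between the effects, the Smad2/3 log2 fold change minus the Tgfbr1/2 one, was tested as an interaction over all 8 libraries. It passed for Adamts10 (1.92 ± 0.36; adjusted p = 0.0266) and Adamts6 (1.98 ± 0.42; adjusted p = 0.0411), both positive. That is 2 of 9 genes, where 1.83% of 17770 tested genes passed (0.664% positive and 1.17% negative). Both genes were higher than control in each Smad2/3 DKO library and lower than control in each Tgfbr1/2 DKO library. Run and Cre driver differ between the comparisons and cannot be told apart from the targeted genes in this difference.

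Either call rested on few libraries. Adamts6 stayed past the threshold without Postn-Cre control HK4 or Tcf21-Cre control HK6 and was lost without any other single library, with adjusted p up to 0.182. Adamts10 stayed past it without Postn-Cre control HK4, Tcf21-Cre control HK7 or Tgfbr1/2 DKO HK2 and was lost without any other, with adjusted p up to 0.0996. The other 7 genes did not pass with edgeR: Adamts9 was at -1.24 (adjusted p = 0.143), Adamts4 at -1.38 (0.256), Adamts5 at -0.73 (0.176), Adamts2 at -0.62 (0.315), Adamts1 at -0.66 (0.473), Adamts12 at -0.15 (0.834) and Adamts15 at 0.73 (0.691). Adamts9 passed with DESeq2 (-1.27; adjusted p = 0.0401), which called 3 members, and without the low-count filter Adamts9 (0.00305) and Adamts4 (0.000529) passed. For Adamts2, no alternative took the difference past the threshold (adjusted p 0.223 to 0.581).

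**Figure D4:**
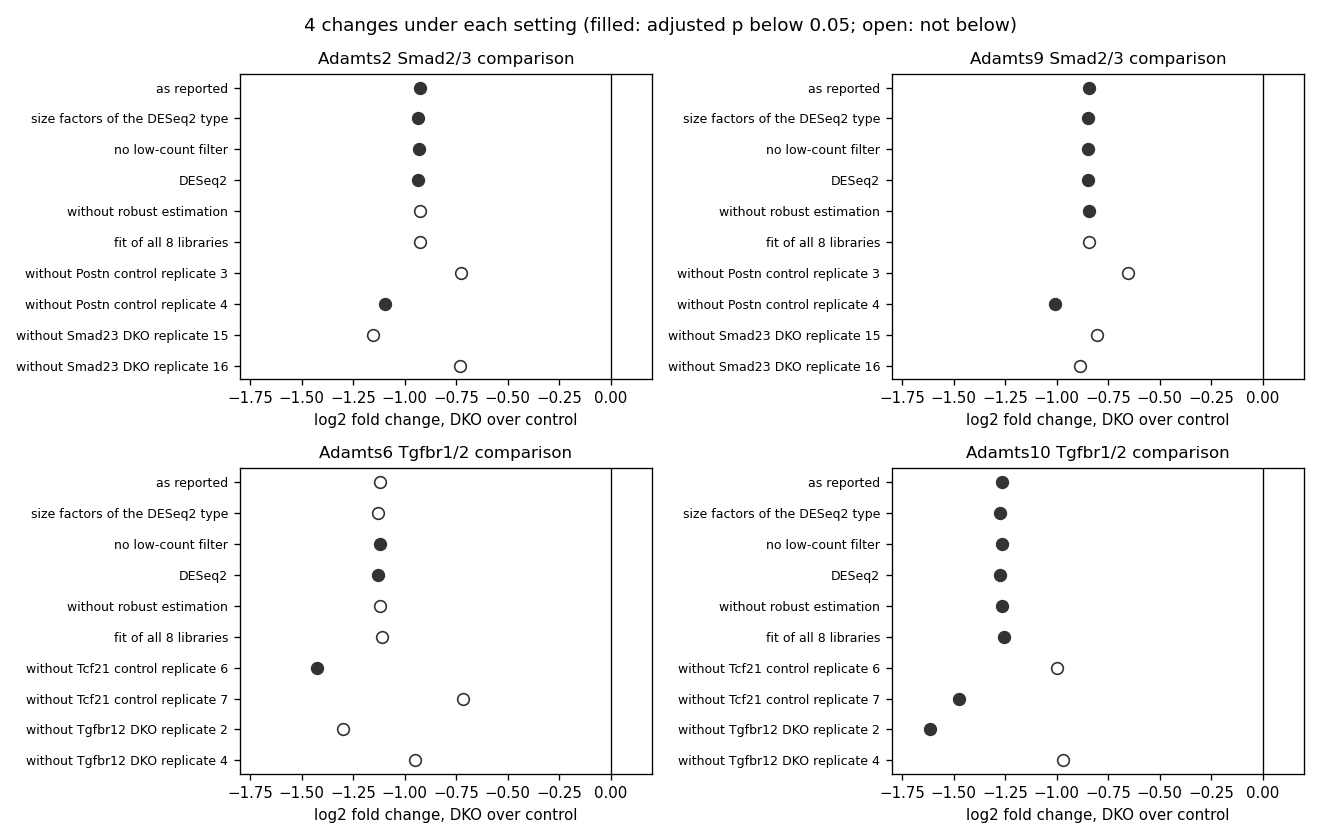
Each panel plots the log2 fold change of DKO over control (x axis) of 1 gene in 1 comparison under each setting (y axis; the replicate numbers are the HK numbers), filled where the adjusted p was below 0.05. All dots lie below 0, between -1.16 and -0.65 for Adamts2 and Adamts9 and between -1.62 and -0.72 for Adamts6 and Adamts10, whereas the filling changes with the libraries left out.

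The control groups differed from each other for most of the 9 genes. Here run and driver change together and cannot be told apart, and these libraries also enter the comparisons above. In the Postn-Cre controls relative to the Tcf21-Cre controls, 6 of 9 genes passed, 2 higher and 4 lower, beside 34.9% of tested genes (15.9% higher and 18.9% lower). Adamts9 was 4.61 times as high (log2 difference 2.21 ± 0.29; adjusted p = 0.000325) and Adamts1 2.21 times (1.15 ± 0.31; adjusted p = 0.0141), where the median of all genes was -0.12. Leaving out Postn-Cre control HK3 (adjusted p = 0.0595) or Tcf21-Cre control HK7 (0.0963) ended the call of Adamts1.

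Adamts15 was the most different member, at 0.0264 of its level in the Tcf21-Cre controls (log2 difference -5.24 ± 0.60; adjusted p = 0.000167). Adamts10 was lower in the Postn-Cre controls by -2.19 ± 0.26 (adjusted p = 0.000202), Adamts2 by -1.44 ± 0.22 (0.000642) and Adamts12 by -0.79 ± 0.19 (0.00886), the last lost without HK6 (0.0619). Adamts5 (0.48; adjusted p = 0.0587), Adamts4 (0.66; 0.246) and Adamts6 (-0.43; 0.281) did not pass with edgeR. Adamts5 passed with DESeq2 (0.57; adjusted p = 0.0143) and with DESeq2-type size factors (0.0307), which made 7 of 9 in each, and Adamts4 passed without the low-count filter (0.0172) and without HK6 (0.0425). Adamts5 was the steadiest of the 9, with a ratio of highest to lowest library of 1.62 in all 8, against 103 for Adamts15. Immediate early genes, led here by Egr1 (3305 CPM), Zfp36 (2253 CPM) and Fosb (1179 CPM), also differed between the runs. They summed to 7179 and 6009.8 CPM in the Postn-Cre controls and to 15037 and 22164 CPM in the Tcf21-Cre controls, with 14 of 19 lower and 2 higher, and their part was not tested.

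The other ADAMTS proteases, 7 of 10 of which were tested, were low, and with edgeR 0 of 7 passed in either knockout comparison (1 and 3 at an unadjusted p below 0.05; with DESeq2 0 in the first and 2, Adamts14 and Adamts17, in the second). Adamts3, a procollagen propeptidase like Adamts2, was at 15.2 and 10.9 CPM in the Postn-Cre controls and at 21.4 and 22.9 CPM in Smad2/3 DKO (log2 fold change 0.71; adjusted p = 0.369), and at -0.40 (0.503) in the Tgfbr1/2 comparison. Adamts8 was at -0.55 (adjusted p = 0.669) and 0.59 (0.348). Their medians were -0.55 and -0.40 in the 2 comparisons. Of the 7 ADAMTS-like proteins, which resemble the proteases but lack the catalytic part, 0 passed with edgeR in either comparison (2 and 1 at an unadjusted p below 0.05; with DESeq2, Adamtsl1 in the first). The most abundant, Adamtsl3 (-0.23, adjusted p = 0.652, and 0.60, 0.107) and Adamtsl4 (-0.03, 0.983, and -0.05, 0.902), were short of the threshold in both.

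**Figure D5:**
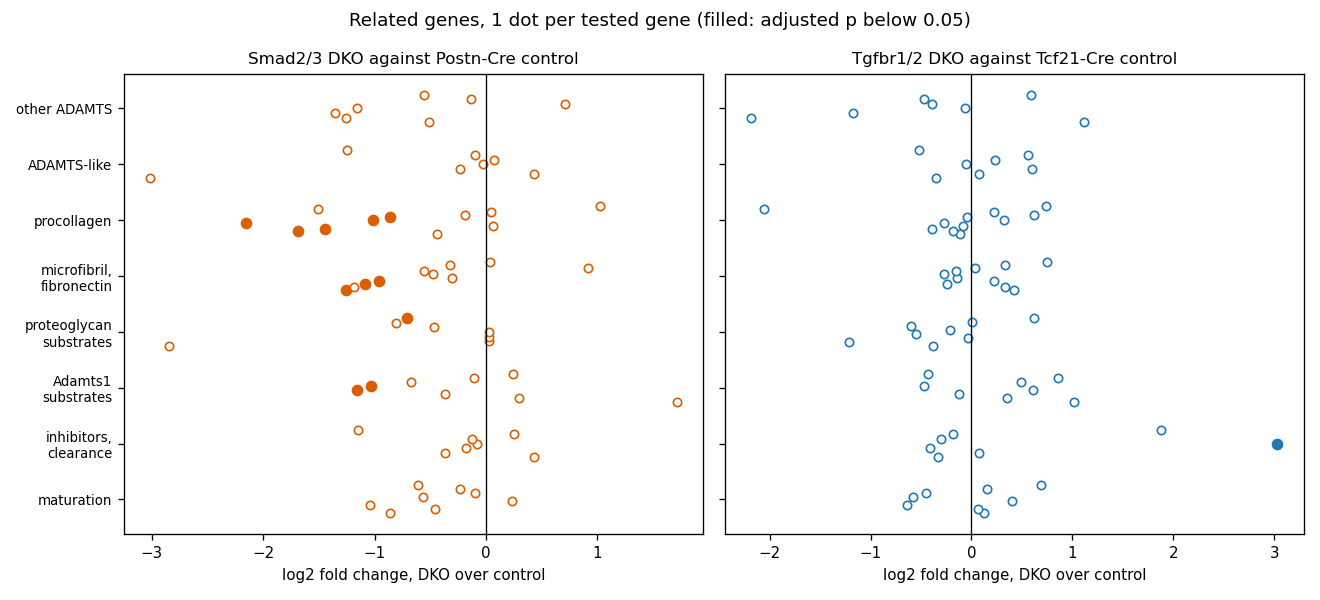
Each dot is the log2 fold change of DKO over control (x axis) of 1 tested gene of 8 lists (y axis), with the Smad2/3 comparison on the left and the Tgfbr1/2 comparison on the right, filled where the adjusted p was below 0.05. On the left 11 dots are filled and all lie below 0; on the right the 1 filled dot is Timp1 at 3.03.

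Some genes whose products these proteases act on fell in the Smad2/3 comparison, where 0.844% of 15760 tested genes passed lower and 0.451% higher. Of 11 tested procollagen chains and their other processing enzymes, 5 fell and none rose, with a median of -0.86. They were Col3a1 (5129.8 and 4307 CPM against 1067 and 1147 CPM; log2 fold change -2.15 ± 0.15; adjusted p = 8.05e-05), Col1a1 (-1.69; 0.0011), Col1a2 (-1.44; 0.0011), Col5a1 (-1.01; 0.00715) and Col5a2 (-0.86; 0.0149). All 5 are fibrillar chains, and Bmp1, the carboxy-propeptidase, did not pass (-0.44; 0.48). Without Smad2/3 DKO HK15 the call of Col5a2 was lost (adjusted p = 0.131). In the Tgfbr1/2 comparison 0 of 11 passed with edgeR (1 at an unadjusted p below 0.05; with DESeq2, Pcolce), with Col3a1 at -0.28 (adjusted p = 0.658) and Col1a2 at -0.39 (0.517).

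Of 10 microfibril and fibronectin partners, Fbn1, the main fibrillin (-1.25; adjusted p = 0.00445), Fn1, fibronectin (-1.09; 0.00369), and Ltbp1, a binder of latent TGF-beta (-0.96; 0.00811), fell in the Smad2/3 comparison and none rose. These are partners of Adamts6 and Adamts10, whose own values were higher. Ltbp1 lost its call without Smad2/3 DKO HK15 (adjusted p = 0.0753). In the Tgfbr1/2 comparison 0 of 10 passed with edgeR (1 at an unadjusted p below 0.05; with DESeq2, Sdc4), with Fbn1 at 0.42 (adjusted p = 0.378) and Fn1 at -0.24 (0.824). The difference between the effects passed for Fbn1 (-1.68; adjusted p = 0.0254), Ltbp1 (-1.19; 0.0411), Col3a1 (-1.88; 0.0314) and Col5a1 (-1.35; 0.0325). Each of these 4 calls was lost without Postn-Cre control HK3, Smad2/3 DKO HK16 or Tgfbr1/2 DKO HK4, all but that of Fbn1 also without Smad2/3 DKO HK15, and some without other libraries, with adjusted p up to 0.137.

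Of 7 tested substrates of the aggrecanases and versicanases, Vcan, versican itself, fell in Smad2/3 DKO (-0.71 ± 0.13; adjusted p = 0.0318) and the other 6 did not pass. Vcan was at 5199 and 5721 CPM in the control pair, against 3328 and 3638 CPM in Smad2/3 DKO, so both the substrate and the proteases Adamts1, Adamts4, Adamts5 and Adamts9 had lower values in both DKO libraries. Its call was lost without Smad2/3 DKO HK15 (adjusted p = 0.258) or HK16 (0.0802). In the Tgfbr1/2 comparison 0 of 8 passed with edgeR (1 at an unadjusted p below 0.05; 0 with DESeq2), with Bgn at -0.04 (adjusted p = 0.955) and Dcn at -0.22 (0.682). Among 8 substrates named for Adamts1, the basement membrane gene Nid2 (-1.16; adjusted p = 0.0354) and the semaphorin Sema3c (-1.04; 0.0302) fell in Smad2/3 DKO. Both were lost without Postn-Cre control HK3, Smad2/3 DKO HK15 or Smad2/3 DKO HK16, with adjusted p up to 0.14. In Tgfbr1/2 DKO 0 of 8 passed with edgeR (2 at an unadjusted p below 0.05; 0 with DESeq2), with Nid1 at -0.12 (0.825) and Thbs1 at 0.86 (0.225), and the effects differed for Nid2 (-1.78; adjusted p = 0.0142), a call lost without Smad2/3 DKO HK16 (0.0607).

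The inhibitors were led by Timp3, the tissue inhibitor that acts on ADAMTS proteases, which did not pass in either comparison (0.25; adjusted p = 0.526, and -0.18; 0.738). Lrp1, the receptor that clears several of the proteases, was at -0.36 (adjusted p = 0.342) and 0.07 (0.9). Of 7 tested genes of this list 0 passed in the Smad2/3 comparison (2 at an unadjusted p below 0.05; 0 with DESeq2). The 1 that passed with edgeR in the other was Timp1 (with DESeq2, Timp1 and Timp4), an inhibitor chiefly of matrix metalloproteases, which rose in Tgfbr1/2 DKO. Timp1 was at 104 and 123 CPM in the Tcf21-Cre controls and at 938 and 829 CPM in DKO (log2 fold change 3.03 ± 0.23; adjusted p = 0.000121), and its effects differed between the comparisons (-3.12; adjusted p = 0.000208). Of 8 maturation enzymes 0 passed with edgeR in either comparison (3 and 5 at an unadjusted p below 0.05; with DESeq2, B3galtl in the first and Pofut2 in the second). Their most abundant members were Pcsk6, a proprotein convertase (-0.09; adjusted p = 0.904, and -0.45; 0.225), and Pofut2, which adds fucose to thrombospondin repeats (-0.61; 0.496, and 0.69; 0.0654).

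Between the control groups, 25 of 71 tested genes of these lists and the targeted genes passed, or 35.2%, near the 34.9% of all tested genes, and the same limit of run and driver holds. Of the other ADAMTS proteases, Adamts7 (-2.03; adjusted p = 0.003) and Adamts14 (-1.26; 0.046) were lower in the Postn-Cre controls, and of the ADAMTS-like genes Adamtsl5 (-2.09; 0.000204), Papln (-1.79; 0.00603), Adamtsl2 (-0.9998; 0.00545) and Adamtsl4 (-0.92; 0.00642). Lower too were Pcolce (-2.74; adjusted p = 3.03e-05), Bmp1 (-1.82; 0.0001), Col1a1 (-0.87; 0.0268), Col5a1 (-0.80; 0.00719), Mfap2 (-4.88; 0.000715), Ltbp3 (-1.05; 0.00457), Ltbp4 (-0.57; 0.0464), Comp (-1.63; 0.0145), Thbs2 (-0.85; 0.0276), Fbln1 (-0.77; 0.0371), Pofut2 (-1.29; 0.00527) and Furin (-0.78; 0.0187). Higher were Areg (2.16; adjusted p = 0.036), Thbs1 (1.87; 0.000967), Vcan (1.66; 0.000397), Bgn (1.27; 0.000839), Ltbp1 (0.83; 0.00437) and Pcsk5 (0.70; 0.0352). The targeted gene Smad2 was higher too (0.73; 0.00694), and 12 of the 25 kept the call without any 1 library: Adamts7, Adamtsl2, Adamtsl5, Bgn, Bmp1, Ltbp1, Ltbp3, Mfap2, Pcolce, Pofut2, Thbs1 and Vcan.

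The genes most like each of the 4 most abundant members were sought among 7819 genes by Pearson's r of log2(CPM + 1), centred within each run, over the 8 libraries. These points share library, run and group, so r is a description only. Adamts1 was most like Has2, which makes the hyaluronan that versican binds (r = 0.979), then Abl2 (0.955) and Tmem2 (0.940). Adamts2 was most like Bmp1, the enzyme that removes the other propeptide of procollagen (r = 0.982), then Sp100 (0.980) and Sema6a (0.974). For Adamts5 the genes were Ptpn11 (r = 0.990), Rae1 (0.986) and B2m (0.969), and for Adamts4 they were Kpna2 (0.974), Usp2 (0.960) and Jak1 (0.958). Has2 was picked by its r over these same libraries, so its split with Adamts1 in Tgfbr1/2 DKO is part of that choice. It was at 75.4 CPM in HK2 and 157 CPM in HK4.

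Among the members themselves, the same measure over 8 libraries was 0.929 for Adamts4 with Adamts9, 0.848 for Adamts1 with Adamts9, 0.847 for Adamts6 with Adamts10 and 0.827 for Adamts2 with Adamts12. It was -0.833 for Adamts6 with Adamts9. The neighbours Adamts1 and Adamts5 were at 0.303.

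The authors' deposited table gave log2 fold changes close to these for the Smad2/3 comparison, from -0.88 for Adamts2 to 0.93 for Adamts6. In the authors' deposited table Adamts15 was listed at 0.00 in that comparison. For the Tgfbr1/2 comparison the authors' deposited table gave -1.36 for Adamts10 and -1.17 for Adamts6. For Adamts1 it gave -0.10, opposite in sign to the value of 0.09 found here, and both are within the spread of the DKO libraries.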

How the data were processed

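RNA from sorted fibroblasts was amplified (NuGEN Ovation) and made into Nextera XT libraries, per the labels' protocols, which name no strand-marking step. The authors deposited expected counts per gene, called raw in the file headers, of which 12.5% of values above 0 were whole numbers. The authors also deposited log2 values centred per gene and a log2 fold change, which are quoted only where named. The build was mm10, per the submitters' processing notes, and for the aligner and the counting tool: not given in the sources used here.

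Expected counts were rounded and entries sharing a symbol were summed (278 symbols). CPM is the count over the library total times 1000000, and exon lengths and positions were read from the GENCODE vM21 annotation of GRCm38, the same assembly as mm10, where 95.3% of identifiers were found. Each comparison was fitted in R 4.3.3 by edgeR 4.0.16 on the 4 libraries it concerns (TMM, filterByExpr, robust quasi-likelihood F test, two-sided), with Benjamini-Hochberg adjustment over all tested genes and a threshold of 0.05. All adjusted p-values are from these edgeR fits unless DESeq2 is named. SEs were derived from the F statistic. The interaction and the control contrast used all 8 libraries. The fits were tested on simulated data.

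Alternatives were DESeq2-type size factors, no low-count filter, DESeq2 1.42.0, no robust estimation, a fit of all 8 libraries for each comparison, and leaving out each library. Groups come from the sample titles, and HK numbers name libraries and pair nothing. Named genes were all 9 members, called genes of each related list or else its 2 most abundant, 3 per marker list, the targeted genes, and the 3 genes most like each of 4 members (mean of at least 10 CPM). The members and lists were chosen with earlier results of these data known.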

Additional observations from a re-analysis of the deposited data

Results flagged for a closer look

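The effects of the 2 knockouts differed by the interaction test for Adamts6, at 1.98 on the log2 scale (1.976; SE 0.42; edgeR adjusted p = 0.0411), and for Adamts10, at 1.92 (1.925; SE 0.36; adjusted p = 0.0266). Over 12 alternatives, the difference ranged from 1.58 to 2.26 for Adamts6, past the threshold in 6, and from 1.63 to 2.25 for Adamts10, past it in 7. In the same contrast, 5 of 5 tested Schwann cell markers were positive. Negative were 12 of 12 myeloid (median -3.12), 5 of 5 erythroid, 5 of 5 epicardial and 11 of 14 endothelial markers. So were 11 of 12 pericyte and smooth muscle markers and 11 of 12 cardiomyocyte markers (median -1.19). With edgeR, Aldh1a2 (-5.04; adjusted p = 0.00143), Eng (-1.71; 0.0149) and 1 pericyte and smooth muscle marker passed among these lists. With DESeq2, 6 myeloid, 4 endothelial, 4 pericyte and smooth muscle and 0 cardiomyocyte markers did. The part of these in the result was not tested.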

How the results depend on the processing

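Of the alternatives' values for single members, 325 kept their direction and side of the threshold, 25 lost the threshold, 17 gained it and 10 changed sign. The count of called genes in the Smad2/3 comparison went from 204 to 819 without the low-count filter and 769 with DESeq2, and from 105 to 297 on leaving out 1 library. The members among them went from 2 to 5 in either of the first, to 1 without robust estimation, to 0 in the fit of all 8 libraries, and from 0 to 3 on leaving out 1 library. In the Tgfbr1/2 comparison the count went from 659 to 1233 without the filter, 1134 with DESeq2, 299 in the fit of all 8 libraries, and from 271 to 485 on leaving out 1 library, with 2 members without the filter or with DESeq2 and from 0 to 1 on leaving out 1 library. For the difference between the effects the count went from 326 to 1194 without the filter and 1146 with DESeq2, and from 89 to 302 on leaving out 1 library, with 4 members without the filter, 3 with DESeq2 and from 0 to 2 on leaving out 1 library. The count for the control comparison went from 3645 to 6500 on leaving out 1 library, against 6193. The cause of these shifts was not tested.

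Signs changed on leaving out 1 library for values that had not passed. The log2 ranges were -0.411 to 1.117 for Adamts15 in the Smad2/3 comparison, and in the Tgfbr1/2 comparison -0.605 to 0.568 for Adamts1, -0.23 to 1.287 for Adamts4, -0.087 to 0.751 for Adamts9 and -0.955 to 0.06 for Adamts15. For the difference they were -1.156 to 0.033 for Adamts1, -0.34 to 0.015 for Adamts12 and -0.036 to 1.547 for Adamts15. With 1 library left in a group, that library is assumed to vary like the others. No paired analysis was possible because the sample titles name no pairs of libraries. Depth limits Adamts15 in the Postn-Cre run, at 8.4 to 27.7 expected counts, where DESeq2 gave it no adjusted p.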
